A study of Homo sapiens with 11 samples.

Results

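RNA-seq of liver tumours that PANC1 LM3 cells formed measured the genes of potassium, sodium, calcium and transient receptor potential (TRP) channels. Members were taken by gene symbol: the KCN, SCN and CACN (A, B and G) families and the TRPA, TRPC, TRPM and TRPV channels. They numbered 156 of 23327 named genes in the authors' deposited table, with 94 potassium, 14 sodium, 26 calcium and 22 TRP channel genes. The symbol rule used no measured value, but it was set with earlier results of these data known.

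PANC1 is a cell line from a human pancreatic ductal carcinoma, and LM3 names its liver-metastatic derivative, of generation 3. The cells expressed 1 of 2 short hairpin RNAs against NPTX1, which encodes the secreted neuronal pentraxin 1, or a control hairpin. There were 3 libraries of shNPTX1_3 and 4 of shNPTX1_4, both labelled NPTX1 knock down, and 4 of shCTRL, labelled WT. In all groups 500000 cells went into the spleen on day 1, and the liver tumours were harvested for RNA on day 21. The sources used here do not give whether a line was 1 clone, what drove the hairpins, or whether each library, labelled a biological replicate, came from its own animal. All p-values measure the spread among these 11 libraries alone, and part of that spread may be technical. The authors' deposited table holds each group's mean normalized count and a single comparison of the 7 knockdown with the 4 control libraries. Single libraries were not analysed here, and no SD can be given for a group mean.

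Ion channels are membrane proteins that let selected ions pass when voltage, a ligand, heat or a messenger opens them. A channel is built from pore-forming alpha subunits, and accessory subunits change its opening, its drug binding or its number at the surface. Potassium channels draw the membrane potential toward rest, sodium and calcium channels carry inward current, and TRP channels are mostly non-selective cation channels that sense chemicals, temperature and stretch. Many of these genes are best known from neurons and muscle, and carcinoma cells also transcribe part of the set.

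Most channel genes were low in these tumours. Of the 156 members, 65 (41.7%) reached a mean over all libraries of 38.6 normalized counts, which is 2 CPM, or normalized counts scaled to the mean total, of the authors' deposited table. Of all named genes, 60.6% reached this minimum. By class, the minimum was reached by 10 of 40 voltage-gated potassium alpha subunits, 8 of 15 inward rectifiers, 3 of 15 tandem-pore (K2P) channels, 5 of 8 calcium- or sodium-activated channels and 10 of 16 potassium accessory subunits. It was reached by 4 of 10 sodium alpha and 2 of 4 sodium beta subunits. Among calcium channel genes it was reached by 5 of 10 alpha1, 1 of 4 alpha2delta, 4 of 4 beta and 2 of 8 gamma subunits, a group that includes the auxiliary subunits of AMPA receptors (TARPs). Among TRP genes 11 of 22 reached it. KCNK2 at 36.3 and KCND1 at 37.7 lay just under the minimum in the authors' deposited table, and KCNF1 at 44.9 and SCN11A at 48.2 just above it. KCNK16, KCNK18 and KCNU1 were listed at 0 in all groups of the authors' deposited table.

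The promoters of 3 potassium channel genes that passed the test are shown, since KCNIP3 and KCNG3 were lower in knockdown tumours and KCNF1 was higher. Each window runs from 250 bases before to 50 bases after the gene's first listed start, 5′ to 3′ on the gene's strand, from RefSeq on GRCh38.p14. The positions are chr2:95346408-95346707 on the plus strand for KCNIP3, chr2:42493933-42494232 on the minus strand for KCNG3 and chr2:10911684-10911983 on the plus strand for KCNF1. Capitals mark the GC box GGGCGG, read on both strands with overlapping matches counted, in KCNIP3 and KCNG3, and the cyclic AMP response element TGACGTCA, read on both strands, in KCNF1.
KCNIP3: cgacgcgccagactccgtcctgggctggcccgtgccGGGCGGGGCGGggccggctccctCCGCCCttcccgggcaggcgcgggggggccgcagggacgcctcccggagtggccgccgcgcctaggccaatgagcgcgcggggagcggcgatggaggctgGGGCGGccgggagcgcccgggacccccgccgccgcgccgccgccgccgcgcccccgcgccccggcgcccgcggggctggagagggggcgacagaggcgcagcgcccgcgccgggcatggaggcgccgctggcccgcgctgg
KCNG3: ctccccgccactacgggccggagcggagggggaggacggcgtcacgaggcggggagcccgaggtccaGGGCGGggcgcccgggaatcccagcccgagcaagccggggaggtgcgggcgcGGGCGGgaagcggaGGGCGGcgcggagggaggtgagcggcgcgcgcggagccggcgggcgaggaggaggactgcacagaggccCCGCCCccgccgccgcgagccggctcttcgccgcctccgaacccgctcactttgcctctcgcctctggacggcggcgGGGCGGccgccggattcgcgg
KCNF1: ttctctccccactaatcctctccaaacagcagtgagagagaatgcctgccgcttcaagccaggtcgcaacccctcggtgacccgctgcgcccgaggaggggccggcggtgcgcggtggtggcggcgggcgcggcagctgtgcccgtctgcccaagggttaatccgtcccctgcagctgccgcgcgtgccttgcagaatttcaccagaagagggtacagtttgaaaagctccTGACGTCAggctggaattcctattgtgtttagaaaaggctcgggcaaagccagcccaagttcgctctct
The KCNIP3 window held 4 GC boxes at a GC content of 85.7%, the KCNG3 window 5 at 80.0%, and the KCNF1 window 0 at 61.3%. A RefSeq window was matched by symbol for 110 of the 156 members and for 49 of the 65 at the minimum. A GC box was found in 67.3% of those 49 windows, against 44.6% of all 27305 promoters of the same length. Of the genes called lower it was found in 9 of 12 windows, and of those called higher in 4 of 5. KCNF1 was the 1 gene among the 49 with TGACGTCA, which 1.98% of all promoters held. These matches describe letters in a window and no binding was measured.

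A gene was called where the adjusted p was under 0.05 (DESeq2's Wald test with Benjamini-Hochberg adjustment over all genes, in the authors' deposited table). Of the 124 channel genes with an adjusted p, 33 were called, against a background of 27.3% of all genes with one. At or above the minimum 24 of the 65 channel genes (36.9%) were called, against a background of 32.4% of all genes at the minimum. The share called was therefore near that of all genes. Of the 24 called, 6 were higher in knockdown tumours (9.23%, background 19.4%) and 18 were lower (27.7%, background 13.1%). Called and at least 2-fold apart were 3 higher genes (background 1.75%) and 4 lower genes (background 0.977%). The 3 higher genes, KCNF1, KCNT2 and TRPA1, had shCTRL means of 25.6, 25.9 and 17.1 normalized counts, under the minimum. They reached the minimum only through the knockdown libraries in which they were high, so their count is no independent result. With groups scaled to the same total, which moved log2 fold changes by 0.066, 6 channel genes were higher and 23 lower, and the background turned to 14.0% higher and 18.9% lower. The median log2 fold change was -0.23 over the 65 channel genes and 0.02 over all genes at the minimum in the authors' deposited table, with 45 channel genes negative and 20 positive. The channel genes had a median mean level of 117 normalized counts, against 488 over all genes at the minimum, and a median standard error of 0.17 against 0.13 in the authors' deposited table. Their median exon length was 6109 bp, against 3711 bp over all genes at the minimum. Fewer cells of a type and less RNA per cell cannot be told apart in such bulk samples.

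**Figure D1:**
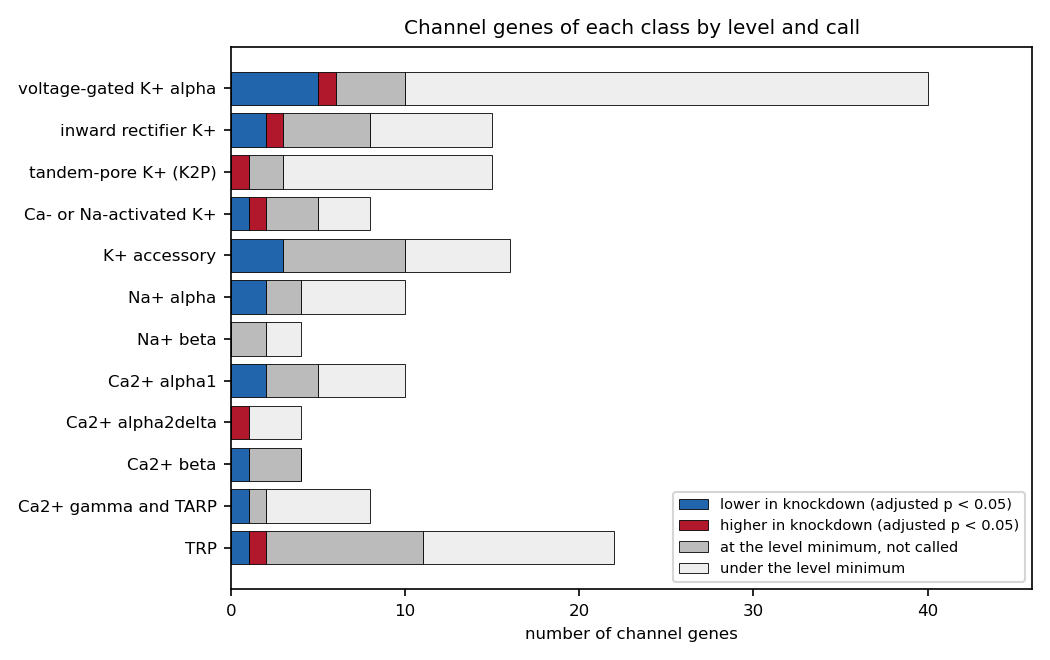
Number of channel genes in each class (bars, x axis), split into genes called lower or higher in knockdown tumours and not called at the level minimum of 38.6 normalized counts, and genes under it. Voltage-gated potassium alpha subunits are the class with the most members (40) and the most genes called lower (5).

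The targeted gene NPTX1 averaged 46.5 normalized counts in shNPTX1_3 tumours and 38.4 in shNPTX1_4 tumours, against 103 in shCTRL tumours, in the authors' deposited table. Its log2 fold change in the authors' deposited table was -1.26 (standard error 0.24, DESeq2 adjusted p = 3.65e-06). Depth, read from single-read steps in low group means, was 10800000 to 24000000 reads on genes in shNPTX1_3, 16600000 to 26100000 in shNPTX1_4 and 13000000 to 41200000 in shCTRL libraries. Of 6 carcinoma markers 5 were at the minimum and 4 were called higher. Those 4 were all keratins: KRT8, KRT18, KRT19 and KRT7, which was under the minimum. The background called higher was 19.4% of genes at the minimum and 4.02% of genes under it with an adjusted p. EPCAM (log2 fold change 0.12, DESeq2 adjusted p = 0.665) and VIM (0.18, 0.184) were not called. The summed levels of the 6 were 124843, 97137 and 76532 normalized counts in shNPTX1_3, shNPTX1_4 and shCTRL tumours in the authors' deposited table. Summed levels in the same order were 199.5, 109 and 102 for 8 hepatocyte markers. Of these 0 reached the minimum and 2 were called higher, APOA1 (49.3, 21.9 and 9.99) and TF (35.1, 20.6 and 12.3). The 7 fibroblast and pericyte markers summed to 1008, 1219 and 1011, with 1 called higher (LUM, which was under the minimum). COL1A1, at 701, 1019 and 725, made up most of each sum and was not called. COL1A2 had 17.8, 17.5 and 74.3 and was not called either. The 6 endothelial markers summed to 433, 373 and 377 and the 6 leukocyte markers to 988, 804 and 896, with 0 called by DESeq2 in the authors' deposited table and an unadjusted p under 0.05 for 1 endothelial and 0 leukocyte markers. No marker of these lists was listed at 0 in all groups, and ALB and TTR, which define hepatocytes, averaged under 1 normalized count. These lists hold human genes, and the submitters' processing notes name a mouse build (mm39) beside hg19. Low counts of human markers therefore do not show how much host tissue a tumour sample held. The part of these markers in the channel results was not tested.

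Among voltage-gated potassium alpha subunits, 5 of the 10 genes at the minimum fell and 1 rose. KCNG1, an electrically silent subunit that changes the gating of other Kv channels, averaged 53.0 and 51.7 normalized counts in shNPTX1_3 and shNPTX1_4 tumours, against 109 in shCTRL tumours, in the authors' deposited table. KCNG3, a silent subunit as well, averaged 186 and 172, against 239 in shCTRL tumours, in the authors' deposited table. For both genes the hairpin means lay under the control mean. The log2 fold changes were -1.08 (standard error 0.18, DESeq2 adjusted p = 4.05e-08) for KCNG1 and -0.43 (0.11, 0.00125) for KCNG3 in the authors' deposited table. KCNF1, another silent subunit, went the other way. It averaged 55.0 and 56.5 normalized counts in shNPTX1_3 and shNPTX1_4 tumours, against 25.6 in shCTRL tumours, in the authors' deposited table. Its log2 fold change in the authors' deposited table was 1.16 (standard error 0.22, DESeq2 adjusted p = 5.03e-06).

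KCNA7, KCNC4, KCNH6 and KCNQ5 were at the minimum and not called. KCNQ5, the Kv7.5 subunit with the highest mean of these, had 617 and 553 normalized counts in shNPTX1_3 and shNPTX1_4 tumours, against 617 in shCTRL tumours, in the authors' deposited table. Its log2 fold change of -0.09 had a 95% interval of -0.29 to 0.10.

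**Figure D2:**
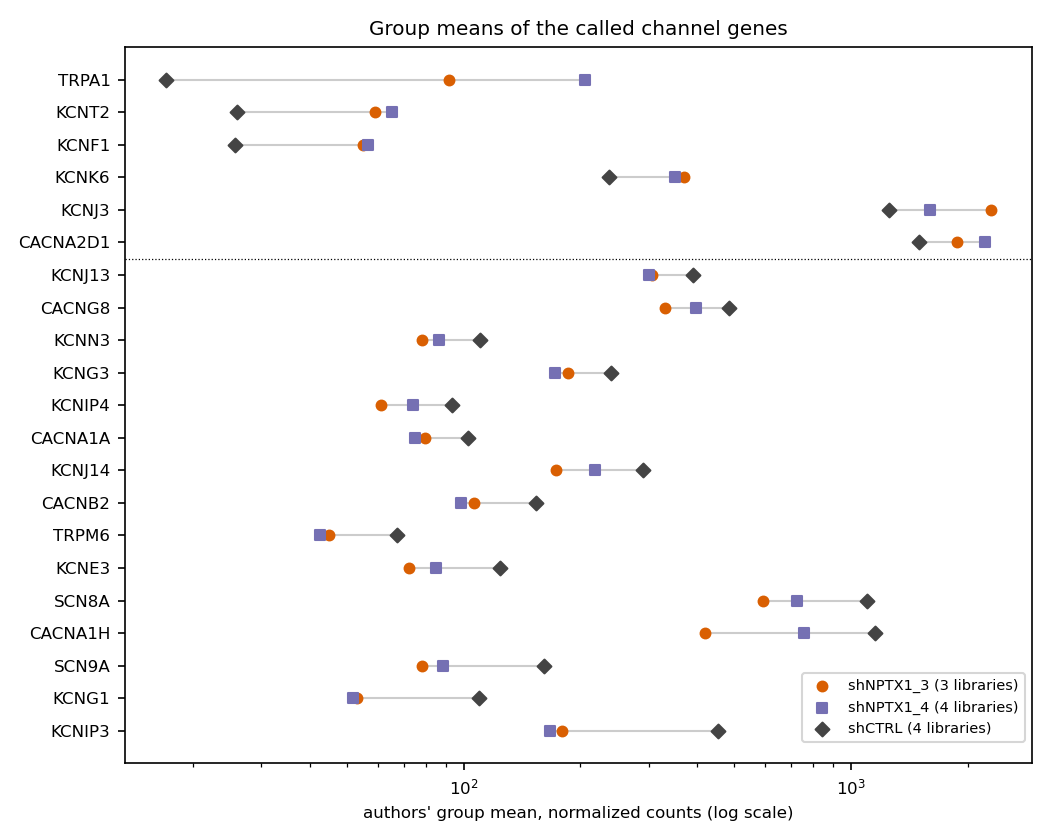
The authors' group means (x axis, normalized counts, log scale) of 21 of the 24 called channel genes at the level minimum, for shNPTX1_3, shNPTX1_4 and shCTRL tumours, with genes called higher above the dotted line. In the 6 higher genes both hairpin means lie right of the control mean, and in the 15 lower genes shown both lie left of it.

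Inward rectifiers pass potassium more readily into than out of the cell and set the resting potential. KCNJ3, which encodes GIRK1 of the G-protein-gated channels, rose and had the highest normalized counts of the class. Its means were 2296 and 1604 normalized counts in shNPTX1_3 and shNPTX1_4 tumours, against 1255 in shCTRL tumours, in the authors' deposited table. The log2 fold change of KCNJ3 in the authors' deposited table was 0.60 (standard error 0.18, DESeq2 adjusted p = 0.00563). KCNJ14 (Kir2.4) averaged 173 and 218, against 290 in shCTRL tumours, in the authors' deposited table. KCNJ13 (Kir7.1), an epithelial rectifier, averaged 306 and 302, against 391 in shCTRL tumours, in the authors' deposited table. Both hairpin means lay under control in these genes, and the log2 fold changes were -0.55 (standard error 0.16, DESeq2 adjusted p = 0.00383) for KCNJ14 and -0.37 (0.12, 0.0128) for KCNJ13 in the authors' deposited table. KCNJ5, the GIRK4 partner of GIRK1, averaged 165 and 192, against 238 in shCTRL tumours, and was not called in the authors' deposited table, with a log2 fold change of -0.40 (standard error 0.17, DESeq2 adjusted p = 0.0548). KCNJ2, KCNJ10, KCNJ11 and KCNJ12 were not called either, and KCNJ12 shares near-identical sequence with KCNJ18, so its reads are uncertain.

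K2P channels carry background potassium current. KCNK6 (TWIK2) rose, with 371 and 350 normalized counts in shNPTX1_3 and shNPTX1_4 tumours, against 237 in shCTRL tumours, in the authors' deposited table. Its log2 fold change in the authors' deposited table was 0.61 (standard error 0.11, DESeq2 adjusted p = 1.53e-06). KCNK3 (TASK1), an acid-sensitive channel, averaged 296 and 262, against 229 in shCTRL tumours, and missed the threshold in the authors' deposited table, with a log2 fold change of 0.28 (DESeq2 adjusted p = 0.0959). KCNK10 was not called.

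Of the channels gated by internal calcium or sodium, KCNT2 rose and KCNN3 fell. KCNT2, the sodium-activated Slick channel, averaged 59.0 and 65.4 normalized counts in shNPTX1_3 and shNPTX1_4 tumours, against 25.9 in shCTRL tumours, in the authors' deposited table. KCNN3, the small-conductance calcium-activated SK3 channel, averaged 78.2 and 86.4, against 110 in shCTRL tumours, in the authors' deposited table. The log2 fold changes were 1.35 (standard error 0.30, DESeq2 adjusted p = 0.000116) for KCNT2 and -0.42 (0.17, 0.048) for KCNN3 in the authors' deposited table. The call of KCNN3 was lost when p-values were adjusted over every gene with a p (adjusted p = 0.0567). KCNMA1, the big-conductance BK channel and the class's highest gene, averaged 4024 and 3521, against 3281 in shCTRL tumours, in the authors' deposited table. It was not called (log2 fold change 0.19, 95% interval 0.01 to 0.37, DESeq2 adjusted p = 0.116 in the authors' deposited table), nor were KCNN2 and KCNN4.

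Accessory subunits of potassium channels held the lower gene with the smallest adjusted p. KCNIP3 encodes a calcium-binding protein, also called calsenilin or DREAM, that binds Kv4 channels and can act as a transcriptional repressor. It averaged 180 normalized counts in shNPTX1_3 and 168 in shNPTX1_4 tumours, against 452 in shCTRL tumours, in the authors' deposited table. The log2 fold change of KCNIP3 in the authors' deposited table was -1.38, or 0.383-fold, with a 95% interval of -1.64 to -1.13 (standard error 0.13, DESeq2 adjusted p = 1.45e-23). KCNE3, a single-span subunit that modulates several Kv channels, averaged 72.1 and 85.0, against 124 in shCTRL tumours, in the authors' deposited table. KCNIP4, another Kv4-binding protein, averaged 61.2 and 74.0, against 93.4 in shCTRL tumours, in the authors' deposited table. Their log2 fold changes were -0.64 (standard error 0.20, DESeq2 adjusted p = 0.00653) for KCNE3 and -0.43 (0.16, 0.0378) for KCNIP4 in the authors' deposited table. KCNAB1, KCNAB2, KCNAB3, KCNE4, KCNIP2, KCNMB3 and KCNMB4 were not called, and KCNMB3, the highest of them, averaged 304 and 237, against 293 in shCTRL tumours, in the authors' deposited table.

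Both called sodium channel genes at the minimum were alpha subunits and fell. SCN8A (Nav1.6) averaged 591 and 725 normalized counts in shNPTX1_3 and shNPTX1_4 tumours, against 1098 in shCTRL tumours, in the authors' deposited table. SCN9A (Nav1.7), known for its role in pain-sensing neurons, averaged 78.0 and 88.4, against 161 in shCTRL tumours, in the authors' deposited table. Both hairpin means of each gene lay under the control mean, and the log2 fold changes were -0.72 (standard error 0.14, DESeq2 adjusted p = 1.38e-05) for SCN8A and -0.94 (0.19, 2.53e-05) for SCN9A in the authors' deposited table. SCN2A (Nav1.2) had 57.0 and 60.4, against 55.6 in shCTRL tumours, in the authors' deposited table, and its log2 fold change of 0.07 had a 95% interval of -0.27 to 0.42. SCN11A was not called. Of the beta subunits, which are single-span partners of the alpha subunits, SCN2B and SCN3B were not called. SCN3B averaged 94.5 and 109, against 140 in shCTRL tumours, in the authors' deposited table, with a log2 fold change of -0.44 (DESeq2 adjusted p = 0.0636). The normalized counts of all 14 sodium channel genes summed to 979, 1173 and 1658 in shNPTX1_3, shNPTX1_4 and shCTRL tumours in the authors' deposited table. SCN8A made up most of each sum. Counts of all 156 members summed to 25031, 23552 and 24773 in the same order, which is 0.125%, 0.122% and 0.132% of each group's total.

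Of the 12 calcium channel genes at the minimum, 4 fell and 1 rose. CACNA1H, the low-voltage-activated T-type Cav3.2 pore, averaged 420 and 757 normalized counts in shNPTX1_3 and shNPTX1_4 tumours, against 1154 in shCTRL tumours, in the authors' deposited table. CACNA1A, the P/Q-type Cav2.1 pore of nerve terminals, averaged 79.6 and 74.7, against 102 in shCTRL tumours, in the authors' deposited table. The log2 fold changes were -0.91 (standard error 0.20, DESeq2 adjusted p = 9.67e-05) for CACNA1H and -0.45 (0.15, 0.0142) for CACNA1A in the authors' deposited table. CACNA2D1, the alpha2delta subunit that raises the number of channels at the surface and binds gabapentin, rose. Its means were 1883 and 2217 in the authors' deposited table, against 1494 in shCTRL tumours, and its log2 fold change there was 0.47 (standard error 0.11, DESeq2 adjusted p = 0.000113). CACNB2, a cytoplasmic beta subunit that brings the pore to the membrane, averaged 106 and 98.5, against 154 in shCTRL tumours, in the authors' deposited table. CACNG8, the TARP gamma-8 that accompanies AMPA-type glutamate receptors, averaged 332 and 399, against 484 in shCTRL tumours, in the authors' deposited table. The log2 fold changes were -0.60 (standard error 0.17, DESeq2 adjusted p = 0.00419) for CACNB2 and -0.39 (0.14, 0.0212) for CACNG8 in the authors' deposited table.

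Of the calcium channel genes at the minimum, CACNA1B, CACNA1D, CACNA1G, CACNB1, CACNB3, CACNB4 and CACNG4 were not called. CACNA1G, the T-type Cav3.1 pore, had 122 and 149 normalized counts in shNPTX1_3 and shNPTX1_4 tumours, against 103 in shCTRL tumours, in the authors' deposited table, with a log2 fold change of 0.40 (standard error 0.18, DESeq2 adjusted p = 0.0858). CACNB3 had 333 and 296, against 288 in shCTRL tumours, and CACNG4 had 458 and 410, against 393 in shCTRL tumours, in the authors' deposited table. CACNA1D, the L-type Cav1.3 pore, had 48.0 and 89.5, against 44.9 in shCTRL tumours, in the authors' deposited table, with a log2 fold change of 0.68 (standard error 0.31, DESeq2 adjusted p = 0.0915).

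**Figure D3:**
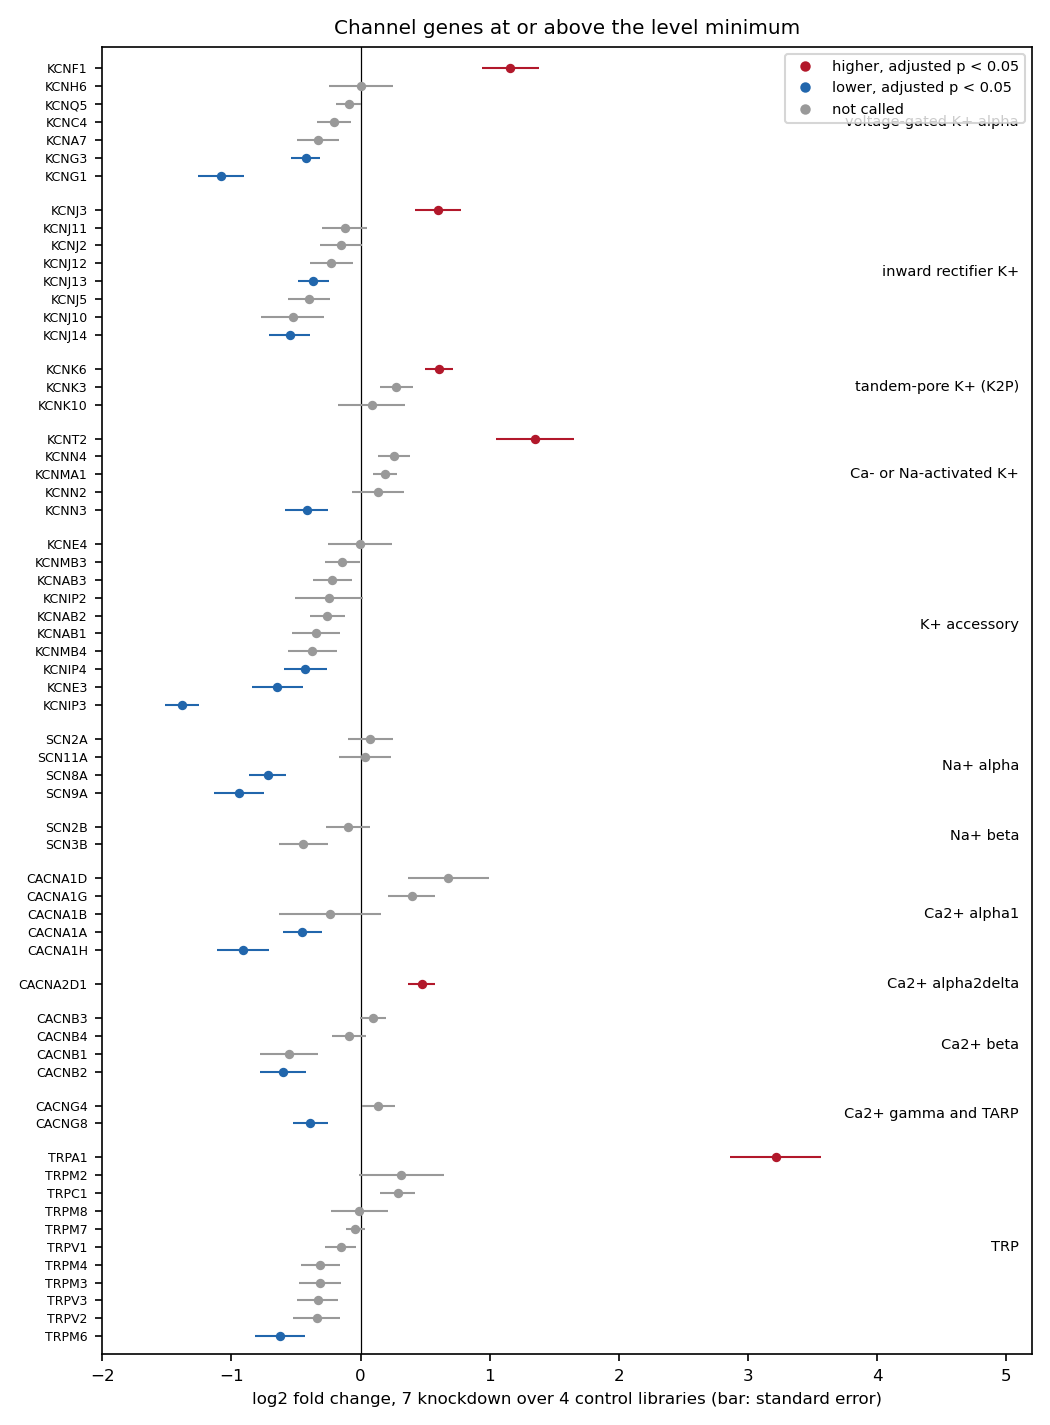
Log2 fold change of the 7 knockdown over the 4 control libraries (x axis; points, with bars for the standard error) for 62 of the 65 channel genes at the level minimum, grouped by class. TRPA1 lies at 3.22, and all other genes shown lie between -1.38 (KCNIP3) and 1.35 (KCNT2).

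TRPA1, a cation channel of sensory neurons opened by reactive irritants such as mustard oil, had the largest fold change of the 65 genes. Its means were 91.4 normalized counts in shNPTX1_3 and 206 in shNPTX1_4 tumours, against 17.1 in shCTRL tumours, in the authors' deposited table. The log2 fold change of TRPA1 in the authors' deposited table was 3.22, or 9.30-fold (standard error 0.35, DESeq2 adjusted p = 1.49e-17). TRPM6, a channel fused to a kinase that takes up magnesium, averaged 44.9 and 42.6, against 67.2 in shCTRL tumours, in the authors' deposited table, with a log2 fold change of -0.62 (standard error 0.19, DESeq2 adjusted p = 0.00817). TRPM7, its close relative and the highest TRP gene, averaged 4549 and 4163, against 4451 in shCTRL tumours, in the authors' deposited table. Its log2 fold change of -0.04 had a 95% interval of -0.18 to 0.10. TRPC1, TRPM2, TRPM3, TRPM4, TRPM8, TRPV1, TRPV2 and TRPV3 were not called. By subfamily, the minimum was reached by 1 of 1 TRPA, 1 of 7 TRPC, 6 of 8 TRPM and 3 of 6 TRPV genes.

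Under the minimum, 59 of the 91 channel genes had an adjusted p and 9 of these were called. The background, over all genes under the minimum with an adjusted p, was 10.3%. TRPV4, a channel opened by warmth and swelling, was the 1 called higher (background 4.02%), with 38.7 normalized counts in shNPTX1_3 and 12.2 in shNPTX1_4 tumours, against 9.26 in shCTRL tumours, in the authors' deposited table (adjusted p = 0.0218, DESeq2). The other 8 were lower (background 6.26%). CACNA2D2, an alpha2delta subunit, had 20.2 and 23.4, against 43.4 in shCTRL tumours, and CACNG2, the TARP stargazin, had 14.4 and 16.1, against 27.2 in shCTRL tumours, in the authors' deposited table. The voltage-gated potassium subunits KCNC1, KCNH1 and KCNH3 had shNPTX1_3 means of 5.68, 3.09 and 12.4, shNPTX1_4 means of 8.51, 4.43 and 15.3, and shCTRL means of 15.1, 12.6 and 23.9 in the authors' deposited table. TRPC4, a receptor-activated cation channel, had 2.05 and 2.26, against 12.1 in shCTRL tumours, in the authors' deposited table. The sodium channel genes SCN1A (Nav1.1) and SCN4B had 3.09 and 1.19 in shNPTX1_3, 3.15 and 1.10 in shNPTX1_4, and 8.41 and 6.23 in shCTRL tumours in the authors' deposited table. At such levels a mean rests on few reads, and the standard errors of these 9 log2 fold changes ranged from 0.24 to 0.79 in the authors' deposited table. The call of SCN1A was lost when p-values were adjusted over every gene with a p (adjusted p = 0.0568).

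The hairpins were set beside the shared control libraries, as log2 ratios of the means in the authors' deposited table with a pseudocount of 1 and no test. At least 2-fold higher were 3 of the 65 channel genes with shNPTX1_3 and 3 with shNPTX1_4, where the backgrounds were 2.95% and 1.47% of genes. With both hairpins these were KCNF1, KCNT2 and TRPA1, whose shCTRL means were under the minimum. At least 2-fold lower were 7 with shNPTX1_3 and 2 with shNPTX1_4, where the backgrounds were 1.51% and 1.24%. By class, the median ratio of voltage-gated potassium alpha subunits was -0.39 with shNPTX1_3 and -0.36 with shNPTX1_4, and that of accessory subunits -0.28 and -0.35. For K2P channels it was 0.37 and 0.29, over 3 genes. Sodium alpha subunits had medians of -0.52 and -0.24 over 4 genes, and TRP genes of -0.03 and -0.25 over 11. The medians of calcium alpha1 subunits, over 5 genes, were -0.36 and 0.12 and lay on either side of 0. In single genes the ratio was -1.46 and -0.61 for CACNA1H and 2.36 and 3.52 for TRPA1, with shNPTX1_3 and shNPTX1_4 in that order. For KCNIP3 it was -1.33 and -1.43.

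**Figure D4:**
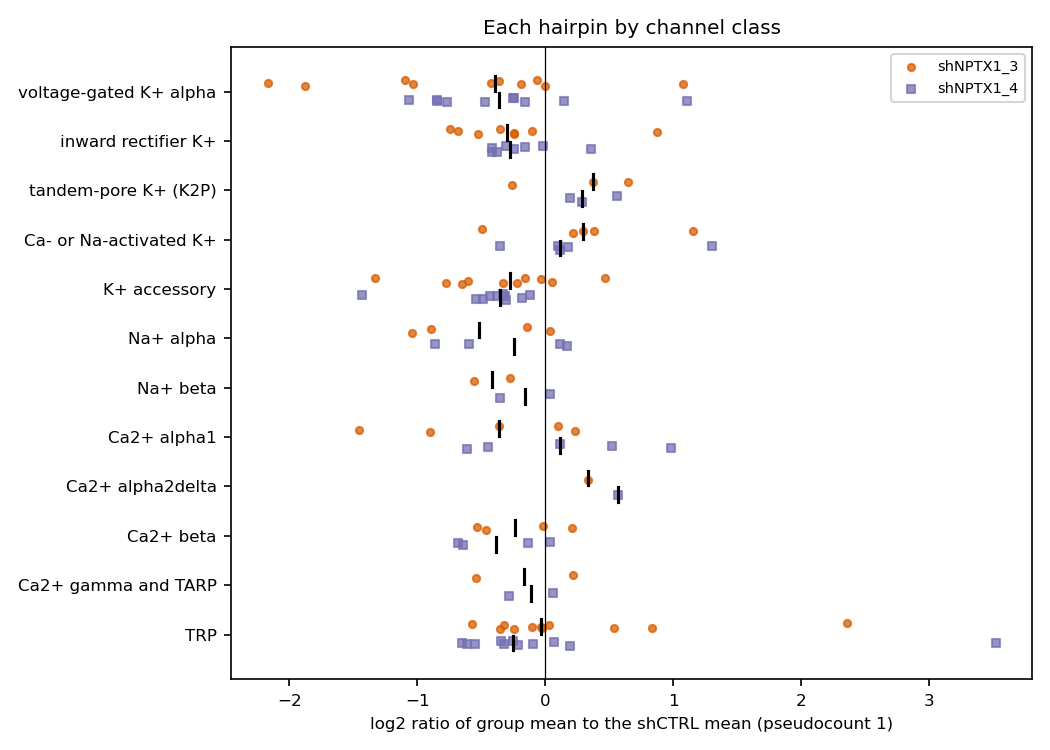
Log2 ratio of each hairpin's mean to the shCTRL mean (x axis, pseudocount 1) for the 65 channel genes at the level minimum, by class; circles are shNPTX1_3, squares shNPTX1_4 and black ticks the class medians. The medians of K2P channels are 0.37 and 0.29, right of 0, and those of voltage-gated potassium alpha subunits are -0.39 and -0.36, left of it.

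To compare levels between channel genes, the means in the authors' deposited table were divided by the exon length in GENCODE release 29. This length merges the exons of all basic transcripts of a gene. Which transcripts were in use is not known here, so ranks between genes depend on these lengths. Per kb, TRPM7 had 437 and 400 normalized counts in shNPTX1_3 and shNPTX1_4 tumours, against 428 in shCTRL tumours, where it ranked first. KCNJ3 had 457 and 319 per kb, against 250 in shCTRL tumours, and ranked 1 in shNPTX1_3, 2 in shNPTX1_4 and 3 in shCTRL tumours. TRPC1 had 421 and 304 per kb, against 290 in shCTRL tumours. CACNA1H had 51.2 and 92.2 per kb, against 141 in shCTRL tumours, with ranks of 16, 11 and 8 in the same order. KCNIP3 ranked 14, 16 and 9. Neighbours in these orders cannot be told apart by replicate spread, since group means carry none.

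Of 71 related ion transport genes listed, 69 were in the authors' deposited table, 52 reached the minimum, 11 of these rose and 9 fell, against backgrounds of 19.4% of all genes at the minimum called higher and 13.1% called lower. Among cation channels outside the member families, ASIC2, an acid-sensing channel, averaged 58.5 and 91.1 normalized counts in shNPTX1_3 and shNPTX1_4 tumours, against 15.8 in shCTRL tumours, in the authors' deposited table, with a log2 fold change of 2.34 (DESeq2 adjusted p = 4.48e-13). NALCN, the sodium leak channel, averaged 348 and 216, against 126 in shCTRL tumours, in the authors' deposited table, with a log2 fold change of 1.10 (DESeq2 adjusted p = 3.07e-06). SCNN1B and SCNN1G, subunits of the epithelial sodium channel, averaged 24.8 and 46.1 in shNPTX1_3, 26.2 and 44.6 in shNPTX1_4, and 74.1 and 107 in shCTRL tumours in the authors' deposited table. Both fell, and the log2 fold change in the authors' deposited table was -1.53 for SCNN1B (DESeq2 adjusted p = 5.79e-11) and -1.20 for SCNN1G (DESeq2 adjusted p = 3.12e-09). The alpha subunit of that channel, SCNN1A, was under the minimum and rose, with 22.8 and 6.79 normalized counts in shNPTX1_3 and shNPTX1_4 tumours, against 4.04 in shCTRL tumours, in the authors' deposited table. The log2 fold change of SCNN1A was 1.66 (standard error 0.58, DESeq2 adjusted p = 0.0208) in the authors' deposited table. SCNN1D, the delta subunit, was at the minimum and not called (DESeq2 adjusted p = 0.987 in the authors' deposited table). Of 10 partner genes at the minimum 3 rose, where the background called higher was 19.4%, among them ANK3, which anchors sodium and KCNQ channels (log2 fold change 0.51, standard error 0.14, DESeq2 adjusted p = 0.0033 in the authors' deposited table).

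Exons of several called channel genes overlap other genes in GENCODE release 29, and the sources used here do not give the strand setting. Opposite-strand exons cover 19.6% of the exon length of KCNG1, 17.9% of KCNE3, 11.8% of TRPA1 and 11.7% of KCNJ14. They cover 9.66% of that of CACNB2, 9.02% of KCNIP4 and 41.4% of KCNH1. KCNJ14 also shares 8.06% with GRWD1 on the same strand, KCNJ13 shares 9.1% with AC064852.1 and KCNH1 18.1% with AL590132.1. Of the uncalled genes given with values, KCNMB3 has 41% of its exon length covered by PIK3CA on the opposite strand. CACNA1D has 12.2% covered by CHDH, also on the opposite strand. Smaller overlaps of these channel genes are not listed. Reads from these stretches cannot be assigned to 1 gene.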

How the data were processed

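Per the labels' protocols, RNA-seq libraries came from the TruSeq RNA kit, version 2. The authors used DESeq2 1.24, MultiQC 1.9, featureCounts 2.0.0 and STAR 2.7.6a with the builds hg19 and mm39, per the submitters' processing notes, which do not say for what. The sources used here do not give the annotation, the strand setting or whether mouse reads were removed. The deposited group means are a signal, counts divided by size factors and averaged by the authors. Per the file headers, the deposited table also gives a log2 fold change and its error, a score (the Wald statistic), a p-value and its adjusted form. The authors' p-values are taken to be those of DESeq2.

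Of 23434 rows, 107 without a usable or unique name (79 with none) were left out. A planned edgeR test of counts was replaced by the authors' comparison, since the deposited values are group means. Members and lists were chosen with earlier results of these data known. Every member at or above 2 CPM with an adjusted p under 0.05 is named with its values, as are called members under it by their means. Some members that the rule would name are not reported here. Uncalled members at the minimum are named by class, with values for the highest of each. CACNA1D was given after its values were seen, as was the choice of related genes with values. The 3 promoters printed were also chosen after values were seen, among those in the RefSeq table. Intervals at 95% are the log2 fold change with its standard error under a normal distribution. Other motifs were searched the same way. The TATA box (letters TATAAA) was in 8.16% of the 49 windows and 12.0% of all promoters, the CCAAT box in 34.7% and 35.7%, and the E-box (letters CACGTG) in 8.16% and 7.43%. The RE1 half-site (letters TTCAGCACC) was in 4.08% and 0.403%, and the NRF1 motif in 0% and 1.36%. The 4.08% is 2 of the 49 windows, and 0 windows of called genes held the RE1 half-site. All promoters include those of genes under the minimum. Tables were made with Python 3.11.15, pandas 2.3.3, numpy 2.4.6 and scipy 1.17.1, after the calculations were checked on simulated data. Alternatives were other minimums, thresholds, adjustments, scalings and pseudocounts.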

Additional observations from a re-analysis of the deposited data

How the results depend on the processing

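No paired analysis was possible because the deposited values are group means that carry no replicate, and for the same reason no library could be left out. A minimum of 5 CPM left 38 channel genes, of which 14 were called and 10 were lower, where 34.3% of all genes at that minimum were called and 12.8% were lower. Under total scaling the log2 fold change of KCNH6 turned to -0.063 and that of SCN11A to -0.029, and with centring on the median gene that of KCNH6 turned to -0.020, none of them called. The count of called channel genes was 23 when adjusted over every p, 29 with total scaling, 27 centred on the median gene, 19 at an adjusted p under 0.01 and 33 with no minimum. CACNB1, KCNJ5, SCN3B, TRPM4 and TRPV3 became called as lower under total scaling. The counts of genes at least 2-fold apart stayed within 1.5 times under each pseudocount and minimum tried. Low levels limited the 91 genes under the minimum, where small changes were not detectable.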

Other observations

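KCNQ1OT1, the long antisense transcript of KCNQ1 and not a channel gene, averaged 23805 normalized counts in shNPTX1_3 and 28682 in shNPTX1_4 tumours, against 36061 in shCTRL tumours, in the authors' deposited table. Its log2 fold change in the authors' deposited table was -0.44 (standard error 0.17, DESeq2 adjusted p = 0.0401). On the scale of normalized counts, not per length, KCNQ1OT1 lay under the sum of all 156 channel genes in shNPTX1_3 tumours and above it in shNPTX1_4 and shCTRL tumours. KCNQ1 itself averaged 1.41 and 2.24, against 2.20 in shCTRL tumours, in the authors' deposited table and was not called.

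KCNJ9, which encodes the GIRK3 inward rectifier, is 1 of 4 genes whose mean over all libraries in the authors' deposited table differs from the mean of its groups. Its group means were 20.8 normalized counts in shNPTX1_3 and 0.032 in shNPTX1_4 tumours, against 8.69 in shCTRL tumours, in the authors' deposited table. The mean over all libraries in the authors' deposited table is 3.22, while the group means weighted by 3, 4 and 4 libraries give 8.84. The calcium release channel RYR2 is another such gene, with 0.85 and 81.6, against 0.42 in shCTRL tumours, and a mean over all libraries of 0.499 in the authors' deposited table. KCNJ9 was not called (log2 fold change -3.14, DESeq2 adjusted p = 0.252), and RYR2 had no adjusted p (log2 fold change 1.42). These fold changes do not match the group means printed here, so those means are not what the comparison rested on. Why they differ was not tested.

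Other called genes of the related list carried ions or served channels. ATP1B1, a beta subunit of the sodium pump, averaged 5863 and 4496 normalized counts in shNPTX1_3 and shNPTX1_4 tumours, against 2881 in shCTRL tumours, in the authors' deposited table, with a log2 fold change of 0.82 (standard error 0.14, DESeq2 adjusted p = 3.52e-07). ATP2A3, a calcium pump of the endoplasmic reticulum, averaged 58.8 and 76.7, against 27.0 in shCTRL tumours, in the authors' deposited table, with a log2 fold change of 1.29 (standard error 0.23, DESeq2 adjusted p = 4.27e-07). ITPR1, an inositol trisphosphate receptor that releases calcium from that store, averaged 949.7 and 1085, against 670 in shCTRL tumours, in the authors' deposited table, with a log2 fold change of 0.62 (standard error 0.09, DESeq2 adjusted p = 2.39e-11). FGF12, an intracellular partner of sodium channels under the minimum, had 17.3 and 21.2, against 38.7 in shCTRL tumours, in the authors' deposited table, with a log2 fold change of -0.94 (standard error 0.31, DESeq2 adjusted p = 0.0121).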
